A study of Bos taurus with 31 samples.

Results

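The interferon-stimulated effector genes are the antiviral sensors and effector proteins that cells make when interferon acts on them. They were taken as the rows of the deposited count table whose gene name is on a list of 46 symbols. A row was found for 39 of the 46, of 14084 rows in all, and OAS2 and OAS1Y had identical counts in every library, so that 38 counted loci were described. IFI16, OAS1X, IFITM1, IFITM2, BST2, MX1 and GBP2 had no row under those names and were not analysed here. Each of the 39 rows passed the filter on low counts.

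The libraries came from mammary epithelial organoids, the clumps of epithelium left when gland tissue is digested with collagenase, trypsin and hyaluronidase and spun free of single cells. Biopsies were taken from 16 dairy cows, at 14 months of age while virgin (15 libraries) and again at 40 to 60 days of lactation (16 libraries). No treatment, strain or genotype is given in the labels, and 15 of the animals gave a library at both stages. A library is named by a letter for its stage and the number of its animal, so V502 and L502 came from the same cow. The lactating sample of an animal was always the later one and followed calving, so stage, age, parity and sampling time cannot be told apart.

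Interferons are signals that cells release when sensors such as MDA5 and RIG-I detect foreign RNA. They bind receptors on the cell surface, the receptors activate JAK kinases, and the kinases activate transcription factors such as STAT2, which joins IRF9, and these switch on many target genes. The products of those genes cut viral RNA, block translation, trap virus particles, deplete nucleotides or attach the ubiquitin-like protein ISG15 to other proteins, and several of the sensors are themselves targets, which closes a loop. In the mammary gland such genes belong to the defence of an epithelium that is exposed to microbes through the teat canal.

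Counting each locus once, libraries held 12477568 to 38794104 counts in virgin and 17637505 to 45478555 in lactating samples. Levels are given as CPM, the count relative to the TMM-scaled total of its library. That total covers the tested rows and counts a locus again for each of its names, so it is not the sum given above. The length over which the authors counted is a genomic span rather than a transcript length, so levels are compared between libraries and not between genes. Summed over the 10 luminal markers listed, libraries stood at 1940 to 7680 CPM in virgin and 1380 to 3360 CPM in lactating samples, and the 6 basal loci at 855 to 5120 and 609 to 1290 CPM. Epithelial markers were thus present in every library. Markers of endothelial cells, fibroblasts and leukocytes were present as well and are given with the results below.

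Most effector loci were higher in lactation. Of the 38 loci, 25 rose, 3 fell and 10 were not called (adjusted p under 0.05 in edgeR's quasi-likelihood test, by Benjamini-Hochberg over all 13180 rows tested). Over all rows tested, 24.2% rose and 30.9% fell, against 65.8% of the effector loci that rose. The median log2 fold change was 0.82 for the effector loci and -0.08 for all rows, where positive values are higher in lactation. Of the 38 loci, 14 were higher in lactation in every one of the 15 animals, which was the case for 7.41% of all rows. Without TMM factors the median of all rows moved by -0.47, and 16 effector loci rose and 5 fell, against 10.5% and 58.8% of all rows. The effector median then stood 0.87 above the median of all rows, against 0.91 with TMM factors. In the authors' deposited table, at an adjusted p under 0.05, 17 of the loci were higher in lactation and 0 were lower, against 10.8% and 10.3% of all its rows. With the animal as a block 27 loci rose and 2 fell, against 27.9% and 27.8% of all rows. In 5 animals the title of the virgin sample has a letter after its number, and without these 5 animals 21 loci rose and 0 fell, against 18.3% and 23.2% of all rows. No locus had every lactating library below every virgin one, the case for 0.781% of all rows.

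**Figure D1:**
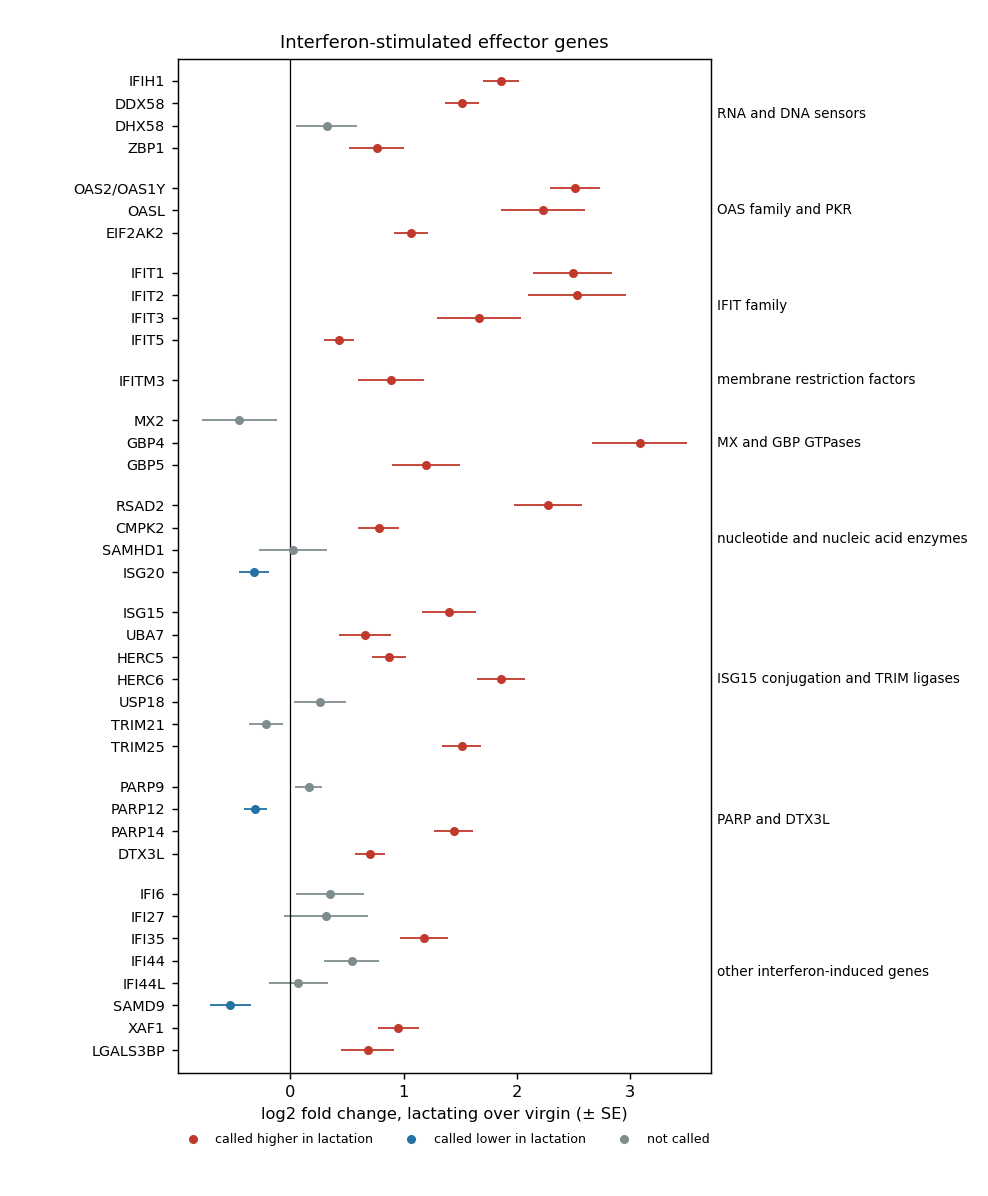
Log2 fold change of each of the 38 effector loci, lactating over virgin, with its standard error (horizontal axis), grouped by role (vertical axis). Red points were called higher, blue points lower and grey points not called; 25 are red and lie between 0.43 (IFIT5) and 3.08 (GBP4), and IFIT5 turned to -0.11 without TMM factors.

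Among the sensors, the RNA helicases MDA5 and RIG-I rose clearly and the third member of their family did not pass the test. IFIH1 (ENSBTAG00000008142) encodes MDA5, which detects long double-stranded RNA. It stood at 4.87 CPM at the lowest, 10.4 at the median and 14.5 at the highest over virgin libraries, and at 19.3, 35.6 and 69.5 CPM over lactating ones. Every lactating library was above every virgin library, which held for 1.15% of all rows. The log2 fold change of IFIH1 was 1.86 ± 0.16 (SE; edgeR adjusted p = 5.03e-11), a 3.63-fold higher level, and it was higher in 15 of 15 animals. DDX58 (ENSBTAG00000003366) encodes RIG-I, which detects RNA with a free triphosphate end. Its virgin libraries ran from 2.46 through a median of 6.45 to 8.23 CPM and its lactating libraries from 10.3 through 18.3 to 27.9 CPM, again without overlap (log2 fold change 1.51 ± 0.15, edgeR adjusted p = 1.45e-09). V479 was the lowest virgin library for IFIH1 and DDX58.

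DHX58 encodes LGP2, the helicase of this family that lacks signalling domains and tunes the other sensors. Its virgin libraries ran from 0.786 through 1.49 to 5.71 CPM and its lactating libraries from 1.35 through 2.55 to 6.67 CPM. The groups overlapped, with V581 and L538 at the top of each, although 7 of the 15 virgin libraries lay below every lactating one. The log2 fold change was 0.32 ± 0.27 (edgeR adjusted p = 0.336), or -0.07 without TMM factors. DHX58 was higher in 11 of 15 animals. It was called without V479 and V581 together (0.67, edgeR adjusted p = 0.0156), libraries picked after seeing the data. ZBP1, a sensor of nucleic acids in the Z form, rose by 0.76 ± 0.24 on the log2 scale from a median of 0.829 to 1.11 CPM. That call was lost without TMM factors and without the 5 animals with lettered virgin titles.

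All 3 loci of the OAS family and PKR rose. OAS enzymes make short 2-5A chains on meeting double-stranded RNA and so switch on an RNase, and PKR stops translation by phosphorylating eIF2alpha. The locus listed as OAS2 (ENSBTAG00000014628) and OAS1Y (ENSBTAG00000039861) joins neighbouring genes, so the share of each cannot be given. It ran from 8.85 through a median of 23.4 to 30.9 CPM in virgin libraries and from 54.5 through 103 to 242 CPM in lactating ones. The groups did not overlap, and the log2 fold change was 2.51 ± 0.22 (edgeR adjusted p = 8.84e-11), higher in 15 of 15 animals. EIF2AK2, which encodes PKR, ran from 9.29 through 27.8 to 40.4 CPM in virgin and from 37.7 through 57.1 to 86.0 CPM in lactating libraries. Of the 16 lactating libraries, 15 lay above every virgin one for EIF2AK2 (log2 fold change 1.06 ± 0.15, edgeR adjusted p = 6.63e-07). OASL, an OAS-like protein that enhances RIG-I signalling, was near the limit of counting in virgin libraries. It ran from 0 to 0.540 CPM there and from 0.169 to 1.47 CPM in lactation (2.23 ± 0.37, edgeR adjusted p = 7.46e-06).

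The IFIT proteins bind viral RNA that lacks host cap marks and keep it from being translated. All 4 IFIT loci were called higher, with IFIT5 turning to -0.11 and losing its call without TMM factors. IFIT1 ran from 0.437 through a median of 2.17 to 6.55 CPM in virgin libraries and from 5.36 through 11.1 to 37.0 CPM in lactating ones (log2 fold change 2.49 ± 0.35, edgeR adjusted p = 5.45e-07). Only the lowest lactating library overlapped the virgin range. IFIT2 was barely counted, at a median of 0.0551 CPM in virgin and 0.401 CPM in lactating libraries, and rose by 2.53 ± 0.43 (edgeR adjusted p = 8.28e-06). IFIT3 rose by 1.66 ± 0.37, from a median of 0.274 to 1.10 CPM. IFIT5 had medians of 37.4 and 42.5 CPM, and its change of 0.43 ± 0.13 was seen in 11 of 15 animals. Reads of IFIT genes can be shared between near-identical copies, and IFIT1 was counted together with a second Ensembl gene.

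Of the membrane restriction factors only IFITM3 had a row. IFITM3 hinders the fusion of viruses with endosomes. It ran from 6.38 through 14.3 to 92.8 CPM in virgin libraries and from 22.2 through 36.4 to 54.8 CPM in lactating ones. The virgin group held the single highest value, in V479, and without it the next was 36.5 CPM in V581. The log2 fold change was 0.89 ± 0.29 (edgeR adjusted p = 0.00927), a call lost without TMM factors and without the 5 animals with lettered virgin titles. IFITM3 has close paralogs, so its counts are uncertain.

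Of the large GTPases with a row, GBP4 and GBP5 rose and MX2 was not called. GBP4 (ENSBTAG00000014529) and GBP5 are guanylate-binding proteins, which coat bacteria and vacuoles and are known mainly as targets of interferon gamma. GBP4 had the largest fold change of the 38 loci, from 0.0288 through a median of 0.324 to 1.06 CPM in virgin libraries to 0.327 through 3.63 to 7.13 CPM in lactating ones (log2 fold change 3.08 ± 0.42, edgeR adjusted p = 2.62e-07). In 14 of 15 animals GBP4 was higher in lactation, and the exception stood at 0.371 CPM in V538 and 0.327 CPM in L538. GBP5 ran from 3.61 through 13.1 to 50.7 CPM and from 13.6 through 33.1 to 94.1 CPM, and rose by 1.20 ± 0.30 (edgeR adjusted p = 0.00119), a call lost without TMM factors. GBP family members are similar in sequence, and reads may be split between them.

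MX2, a dynamin-like GTPase that blocks the nuclear entry of viral genomes, was counted as 1 locus with its neighbour FAM3B. It ran from 3.97 through 12.5 to 62.9 CPM in virgin libraries and from 3.54 through 9.46 to 39.9 CPM in lactating ones, with V478 and L538 highest. The groups covered nearly the same range, and the log2 fold change of -0.45 ± 0.33 was not called (edgeR adjusted p = 0.247). Without L538 it was -0.71 (edgeR adjusted p = 0.0399), so leaving out that library added a call, and without V478 it was -0.09 (edgeR adjusted p = 0.798). MX2 was also called lower without TMM factors.

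Among the enzymes that act on nucleotides and nucleic acids, the viperin gene rose most. RSAD2 (ENSBTAG00000016061) encodes viperin, which makes a chain-terminating nucleotide. Its virgin libraries ran from 1.92 through 4.48 to 14.3 CPM and its lactating libraries from 10.3 through 26.7 to 70.7 CPM. In lactation 14 of 16 libraries lay above every virgin library (log2 fold change 2.27 ± 0.30, edgeR adjusted p = 2.09e-07). V502 and L502 were each the highest library of their stage for RSAD2.

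CMPK2, a nucleotide kinase encoded next to RSAD2, rose less, by 0.78 ± 0.18 (edgeR adjusted p = 5.35e-04), from a median of 8.14 to 12.1 CPM, a call lost without TMM factors. The locus counted for CMPK2 was 3.51 times its RefSeq span. SAMHD1, which breaks down deoxynucleotides, ran from 4.92 to 50.6 CPM in virgin and from 10.2 to 33.4 CPM in lactating libraries, and its log2 fold change was 0.02 ± 0.30 (edgeR adjusted p = 0.967), or -0.50 without TMM factors. ISG20, an RNA exonuclease counted together with its neighbour AEN, went from a median of 160 to 141 CPM (log2 fold change -0.32 ± 0.13, edgeR adjusted p = 0.0371). The ISG20 call was lost when any 1 of 8 libraries was left out (V479, V504, V507, L468, L479, L490, L495 or L507), with the animal as a block and with limma-voom.

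ISG15 is a ubiquitin-like protein, UBA7 the enzyme that activates it, HERC5 and HERC6 ligases that attach it, and USP18 the protease that removes it and also damps interferon receptor signalling. Of the 7 loci in this group 5 rose and 2 were not called, against 24.2% risen and 30.9% fallen of all rows. ISG15 (ENSBTAG00000014707) ran from 1.75 through 3.64 to 7.52 CPM in virgin libraries and from 5.64 through 8.88 to 24.2 CPM in lactating ones (log2 fold change 1.40 ± 0.24, edgeR adjusted p = 8.21e-06). It was higher in 15 of 15 animals, although 6 of the 16 lactating libraries lay within the virgin range. HERC6 ran from 11.6 through 22.2 to 30.6 CPM and from 26.9 through 81.2 to 153 CPM, and only 1 lactating library reached down into the virgin range. Its log2 fold change was 1.86 ± 0.21 (edgeR adjusted p = 1.36e-08). HERC5 rose by 0.87 ± 0.15 and UBA7 by 0.66 ± 0.23, 2 calls that were lost without TMM factors. The UBA7 call was also lost without the 5 animals with lettered virgin titles.

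USP18 gave another picture. It ran from 3.55 through 15.9 to 32.2 CPM in virgin libraries, with V581 highest, and from 9.03 through 18.5 to 27.2 CPM in lactating ones. The lactating range lay inside the virgin range, and the log2 fold change of 0.26 ± 0.23 was not called (edgeR adjusted p = 0.335) and stood at -0.17 without TMM factors. Its counted locus was 2.18 times the RefSeq span. Of the TRIM ubiquitin ligases, TRIM25, which modifies RIG-I, ran from 23.6 through 40.9 to 82.6 CPM and from 68.5 through 126 to 205 CPM. In all 15 animals TRIM25 was higher in lactation (log2 fold change 1.51 ± 0.17, edgeR adjusted p = 8.35e-09). TRIM21, a cytosolic antibody receptor, had medians of 4.22 and 3.65 CPM and was not called (-0.22 ± 0.15, edgeR adjusted p = 0.235), although it was called lower without TMM factors.

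**Figure D2:**
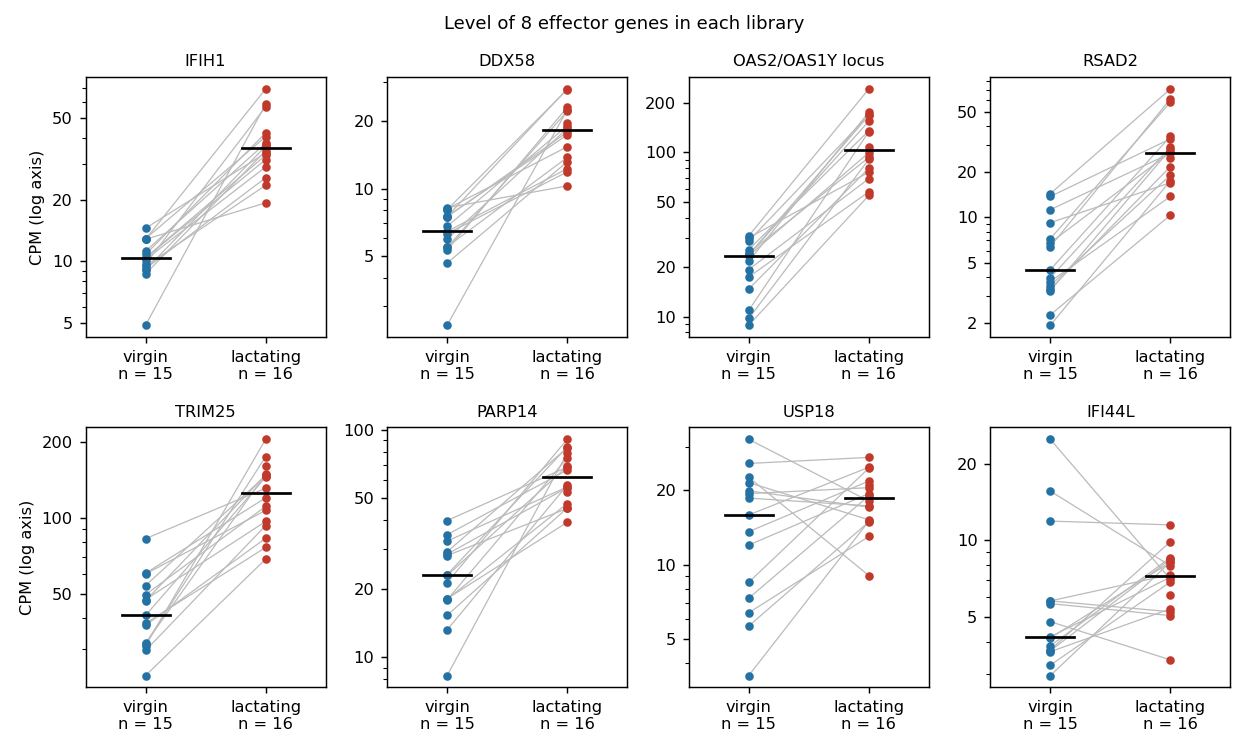
CPM on a log axis of 8 effector genes in each virgin (blue) and lactating (red) library, with grey lines joining the libraries of an animal and black bars at the medians. IFIH1, DDX58 and the OAS2/OAS1Y locus do not overlap between stages. RSAD2, TRIM25 and PARP14 overlap at the edges of their ranges, and USP18 and IFI44L overlap widely.

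PARP14 and PARP9 belong to the ADP-ribosyl transferases, and DTX3L is a ubiquitin ligase that works bound to PARP9. PARP14 ran from 8.31 through 22.9 to 39.9 CPM in virgin and from 39.2 through 61.8 to 90.8 CPM in lactating libraries, with 15 of 16 lactating libraries above every virgin one. Its log2 fold change was 1.44 ± 0.17 (edgeR adjusted p = 2.17e-08). DTX3L rose by 0.70 ± 0.13 from a median of 7.28 to 11.0 CPM, a call lost without TMM factors, and its partner PARP9 was not called (0.16 ± 0.12, medians 9.52 and 11.4 CPM, and -0.31 without TMM factors). PARP12, which restrains translation of viral RNA, went the other way, from a median of 30.5 to 25.6 CPM (-0.31 ± 0.10, edgeR adjusted p = 0.0129), lower in 10 of 15 animals.

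Of the remaining 8 loci, 3 rose (37.5%), 1 fell and 4 were not called, against 24.2% risen and 30.9% fallen of all rows. IFI35, a partner of NMI, ran from 1.91 through 3.30 to 10.4 CPM and from 5.18 through 8.26 to 14.0 CPM (log2 fold change 1.18 ± 0.21, edgeR adjusted p = 2.40e-05). XAF1, a promoter of apoptosis, rose by 0.95 ± 0.18 from a median of 1.04 to 2.16 CPM. LGALS3BP, a secreted galectin-binding glycoprotein also found in milk, rose by 0.68 ± 0.23 from 7.26 to 17.4 CPM at the median. SAMD9, which blocks translation, was the member with the largest fall (-0.53 ± 0.18, edgeR adjusted p = 0.0153, medians 26.8 and 17.0 CPM). The LGALS3BP call was lost without TMM factors, and the LGALS3BP, SAMD9, PARP12 and ISG20 calls were lost without the 5 animals with lettered virgin titles.

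The 4 uncalled genes of that group are IFI6, IFI27, IFI44 and IFI44L, all of them genes that respond strongly to interferon in other settings. IFI6, a mitochondrial protein that opposes apoptosis, ran from 1.13 through 1.77 to 12.5 CPM in virgin and from 1.88 through 4.15 to 7.35 CPM in lactating libraries (0.35 ± 0.30, edgeR adjusted p = 0.338). IFI44L ran from 2.95 through 4.19 to 24.9 CPM and from 3.40 through 7.26 to 11.5 CPM (0.07 ± 0.26). IFI27 ran from 1.66 to 29.1 CPM and from 3.02 to 36.3 CPM (0.31 ± 0.37), over a locus 2.55 times its RefSeq span. In each of these 3 the lactating median was the higher one, and a few virgin libraries held values at or above most lactating ones. IFI6, IFI27 and IFI44L turned negative without TMM factors (-0.07, -0.18 and -0.33).

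Some of these calls depended on single virgin libraries and on the method. For IFI44, at medians of 1.82 and 3.16 CPM, V581 stood at 9.05 CPM and the next virgin library at 2.88 CPM. The log2 fold change of IFI44 was 0.54 ± 0.24 (edgeR adjusted p = 0.0591) with V581, higher in 14 of 15 animals, and 0.87 (edgeR adjusted p = 5.32e-05) without it. It was also called without L509 (0.57, edgeR adjusted p = 0.0492), with the animal as a block, and with all libraries by DESeq2 (adjusted p = 0.0415) and limma-voom (adjusted p = 0.00306). For IFI6, V479 stood at 12.5 CPM and the next virgin library at 6.32 CPM, and without V479 the log2 fold change was 0.66 (edgeR adjusted p = 0.0302). IFI6 was called with the block as well, and by limma-voom (adjusted p = 0.0424). Without V479 and V581 together, a choice made after seeing the data, 28 loci rose and 2 fell, against 27.7% and 34.3% of all rows.

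The spread between animals was wide for these genes. The biological coefficient of variation, the spread between libraries of a stage beyond counting noise, had a median of 0.435 over the 38 loci and of 0.331 over all rows tested. It ran from 0.215 for PARP12 to 0.720 for GBP4. The loci did not share their high libraries evenly. L502 was among the 3 highest lactating libraries for 25 of the 38 loci (65.8%), against 18.9% of all tested loci, and L538 for 21 (55.3%, against 29.1%). L595 followed with 16 loci (42.1%, against 20.2%). At the other end, L478 was among the 3 lowest for 21 loci, against 28.9% of all tested loci, and L504 for 17, against 18.9%. L581 was among the 3 highest for 0 of the 38, against 19.0% of all tested loci.

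Among virgin libraries V502 and V581 were each among the 3 highest for 16 loci (42.1%), against 23.5% and 27.6% of all tested loci. They led in different members. V502 was highest for the OAS2/OAS1Y locus, RSAD2, ISG15, IFIT2, IFIT3 and ZBP1. V581 was highest for DHX58, USP18, HERC6, PARP9, IFI44, IFI44L and XAF1, and V479 for IFITM3, IFI6, IFI27, IFI35, UBA7, LGALS3BP and ISG20. V479 was at the same time among the 3 lowest for 17 loci, and it stood at such extremes for many genes, being among the 3 highest for 37.3% and the 3 lowest for 38.0% of all tested loci. The cow of V502 and L502 thus ranked high at both stages, while the cow of V581 went from 16 loci to 0.

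**Figure D3:**
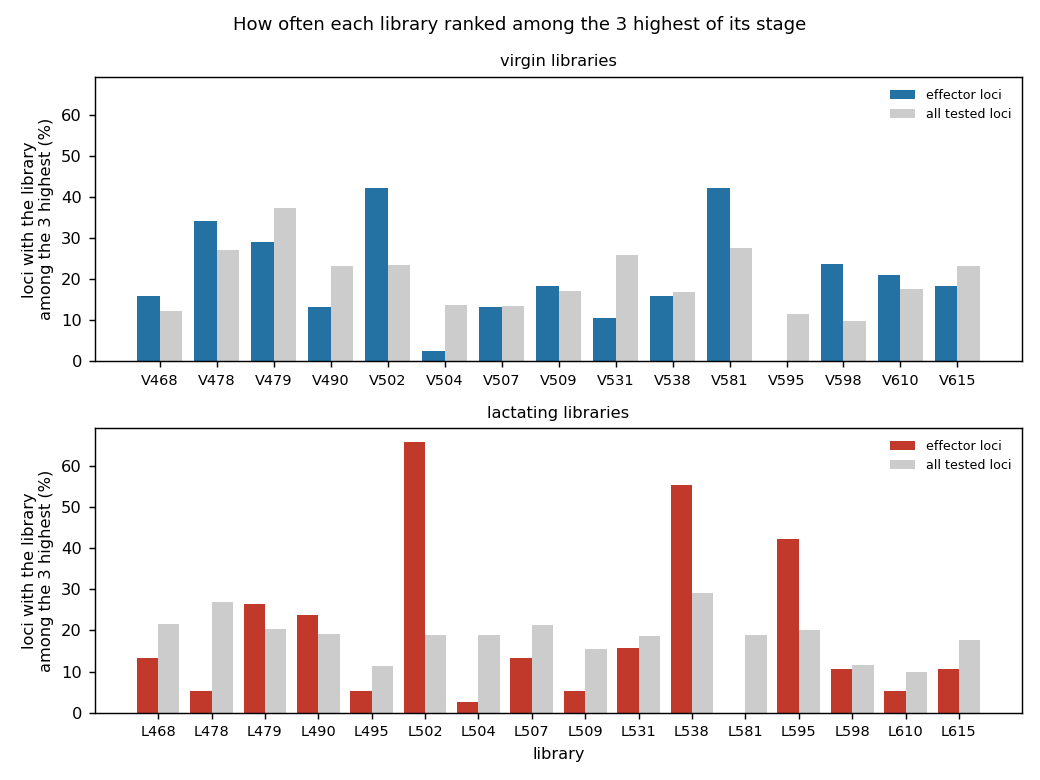
Percentage of the 38 effector loci (coloured bars) and of all tested loci (grey bars) for which each library was among the 3 highest of its stage, virgin above and lactating below. L502 (65.8%) and L538 (55.3%) stand highest among lactating libraries, and V502 and V581 (42.1% each) among virgin ones.

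Within animals, the number of effector loci that were higher in lactation ran from 21 of 38 in the cow of V581 and L581 to 36 of 38 in the cow of V538 and L538. The median log2 ratio over the 38 loci, with 0.1 added to each CPM, was 0.37 for L581 over V581 and 0.31 for L478 over V478, and at least 0.69 in each of the other 13 animals. It was highest for L595 over V595 (1.55) and L538 over V538 (1.48). Over all tested loci the same median lay between -0.07 and 0.12 in every animal. From V581 to L581, USP18 went from 32.2 to 18.1 CPM, IFI44L from 24.9 to 7.04 CPM and PARP9 from 18.4 to 9.06 CPM. Between the same libraries IFIH1 went from 9.21 to 25.6 CPM, RSAD2 from 3.34 to 21.6 CPM and PARP14 from 15.3 to 45.3 CPM, so genes of the list differed in direction within 1 animal.

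**Figure D4:**
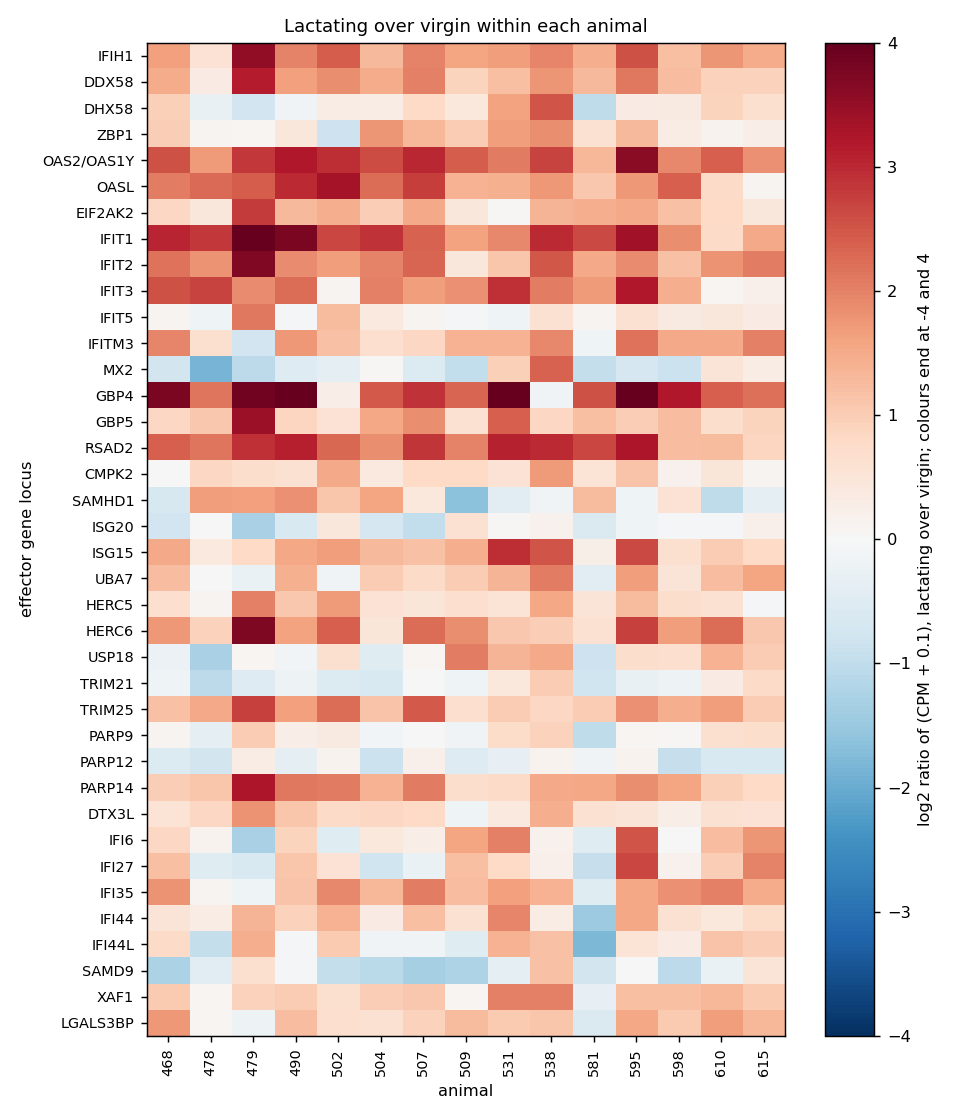
Log2 ratio of CPM plus 0.1, lactating over virgin, for each effector locus (rows) in each of the 15 animals with both stages (columns), red where the lactating library was higher and blue where it was lower. RSAD2, IFIT1 and the OAS2/OAS1Y locus are red in all 15 columns, while USP18, IFI44L and MX2 are mixed, with the cow of V581 and L581 blue in each of those 3.

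Markers of luminal epithelium and of several other cell types changed with stage in the same libraries. Over all rows tested, 24.2% rose and 30.9% fell. Of the 10 luminal markers 2 rose and 6 fell. Of the 6 basal loci 1 rose and 2 fell, near the shares of all rows. All 12 endothelial markers rose, 9 of 9 tested lymphocyte markers rose, and 10 of 11 macrophage and monocyte markers rose. Their summed levels had medians of 164 and 938 CPM for endothelial markers in virgin and lactating libraries, 11.2 and 41.8 CPM for lymphocyte markers, and 33.1 and 248 CPM for macrophage markers. Within the macrophage sum, CD14 alone had medians of 17.8 and 182 CPM. The locus counted for CD14 was 25.9 times its RefSeq span, so counts of neighbouring genes may be included. The virgin ranges were 38.7 to 800, 4.64 to 35.9 and 16.8 to 82.9 CPM, and the lactating ranges 274 to 1810, 25.5 to 71.0 and 134 to 587 CPM. No marker of the endothelial, lymphocyte and macrophage lists with a row was at 0 in lactation, whereas CD79B, MS4A1 and MARCO had no row under those names. In bulk libraries, fewer cells of a type and less RNA per cell cannot be told apart. The part of these cells in the levels of the effector genes was not tested.

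The other lists of blood cells and stroma were more mixed, beside the 24.2% of all rows that rose and the 30.9% that fell. Of 5 neutrophil markers 2 rose and 0 fell, with summed levels of 5.06 to 81.1 CPM in virgin and 13.1 to 94.8 CPM in lactating libraries. Those that rose were FCGR3A and CXCR2, while S100A8, S100A9 and S100A12 were not called. CXCR2 was counted together with RUFY4 over a locus 4.1 times its RefSeq span, which also enters these sums. Of 5 plasma cell markers 3 rose and 2 fell, with sums of 191 to 624 and 200 to 296 CPM. Of 8 fibroblast markers 1 rose and 4 fell, with sums of 326 to 21400 and 533 to 1640 CPM. Of 5 adipocyte markers 3 rose and 1 fell, with sums of 3.11 to 181 and 37.5 to 1800 CPM. V502, the virgin library with the highest RSAD2, ISG15 and OAS2/OAS1Y levels, also had the highest summed endothelial (800 CPM), fibroblast (21400 CPM) and adipocyte (181 CPM) markers of its stage. V581, which like V502 was among the 3 highest for 16 loci, stood at 136 CPM of endothelial markers, under the virgin median of 164 CPM.

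Libraries that ranked high for the effector loci differed in these sums. L502 and L595, among the 3 highest for 25 and 16 loci, stood at 1360 and 1810 CPM of endothelial markers, and L478, among the 3 lowest for 21 loci, at 274 CPM, the lowest lactating value. L495 and L507 stood at 1380 and 1360 CPM. They were among the 3 highest for 2 and 5 loci, against 11.4% and 21.3% of all tested loci. Above the stage median they stood for 21 and 29 of the 38 loci. L479, at 1530 CPM, was above the stage median for 30 loci. L504 and L615, at 404 and 475 CPM, were among the 3 lowest for 17 and 15 loci, against 18.9% and 18.2% of all tested loci. Any relation between these sums and the effector levels was not tested. L538 was among the 3 highest for 21 loci. Its summed endothelial markers stood at 276 CPM, the second lowest of the lactating libraries and under the 800 CPM of V502. That sum was still above the virgin median of 164 CPM and the 196 CPM of V538. Its macrophage markers at 134 CPM were level with the lowest lactating library, but above the highest virgin one (82.9 CPM). Its lymphocyte markers stood at 29.3 CPM, against 6.64 CPM in V538. Among lactating libraries its neutrophil markers at 71.6 CPM were the second highest. Its fibroblast markers stood at 921 CPM, against 987 CPM in V538. In L538, IFIH1 stood at 42.4, RSAD2 at 57.7, PARP14 at 83.3 and IFIT1 at 33.6 CPM, each above the highest virgin library and above the lactating median. For GBP4, at 0.327 CPM, L538 was the lowest lactating library. L538 and L478 were known from earlier results to have the lowest share of milk protein transcripts in lactation, and without both of them 25 loci rose and 4 fell, against 24.1% and 31.6% of all rows.

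Of the 12 interferon symbols listed, 3 had a row. IFNG, which encodes interferon gamma, did not pass the filter on low counts and ran from 0 to 0.252 CPM in virgin and from 0.0842 to 0.683 CPM in lactating libraries. IFNK, interferon kappa of epithelia, ran from 0.0748 to 0.550 CPM and from 0.0876 to 2.77 CPM and was called higher (1.33 ± 0.39, edgeR adjusted p = 0.00418). Its medians were only 0.219 and 0.359 CPM, and it was higher in 11 of 15 animals. Without L504, its highest library, the log2 fold change was 0.92. IFNE, interferon epsilon, went from a median of 26.0 to 8.40 CPM (-1.68 ± 0.44, edgeR adjusted p = 0.00163), but its locus was counted together with the microRNA gene bta-mir-31. No row was found under the other 9 ligand symbols listed, among them IFNA1, IFNB1 and IFNL3, and they were not analysed here.

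Of 33 tested genes of interferon signalling, 16 rose, 5 fell and 12 were not called, against the 24.2% and 30.9% of all rows. Without TMM factors 8 rose and 13 fell, against 10.5% and 58.8% of all rows in that setting. The median log2 fold change of the 33 was 0.35. Of the 6 receptor genes 4 rose. The type I receptor chains IFNAR1 (median 118 to 194 CPM, log2 fold change 0.76 ± 0.18) and IFNAR2 (33.0 to 58.1 CPM, 0.88 ± 0.15, edgeR adjusted p = 9.10e-06) were each higher in 14 of 15 animals. IFNGR2, a chain of the interferon gamma receptor, rose by 0.76 ± 0.13, while IFNGR1 was not called (0.22 ± 0.10, edgeR adjusted p = 0.0707, and -0.27 without TMM factors). IFNGR1 was called without V502 (0.27, edgeR adjusted p = 0.0186). IFNLR1, the specific chain of the interferon lambda receptor, fell by 1.01 ± 0.27 on the log2 scale from a median of 0.437 to 0.281 CPM. The calls of IFNAR1, IFNAR2 and IFNGR2 were lost without TMM factors.

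Of the 5 genes grouped as JAK kinases, STATs and IRF9, 3 rose, and IRF9 had the largest fold change of them. JAK1 went from a median of 186 to 298 CPM (0.61 ± 0.12, edgeR adjusted p = 4.22e-05, a call lost without TMM factors). TYK2 had medians of 11.1 and 12.4 CPM (0.03 ± 0.12, edgeR adjusted p = 0.843). STAT2 rose by 0.25 ± 0.07 from 22.0 to 25.8 CPM at the median. TYK2 and STAT2 turned negative without TMM factors. IRF9, a partner of STAT2 in the complex that binds interferon-responsive promoters, ran from 4.69 through 12.7 to 28.2 CPM in virgin and from 31.0 through 45.6 to 64.2 CPM in lactating libraries. The groups of IRF9 did not overlap (1.79 ± 0.17, edgeR adjusted p = 4.37e-10).

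The interferon regulatory factors divided. IRF1, a transcription factor induced by interferon gamma and needed for basal antiviral gene expression, ran from 39.5 through 58.7 to 111 CPM and from 162 through 284 to 527 CPM without overlap. Its log2 fold change of 2.42 ± 0.16 (edgeR adjusted p = 5.74e-13) was the largest of the signalling genes. IRF8, a factor of myeloid and B cells, ran from 1.99 through 4.58 to 7.65 CPM and from 13.6 through 20.3 to 31.8 CPM, also without overlap (2.09 ± 0.17, edgeR adjusted p = 4.17e-11). IRF7, which amplifies interferon production, had medians of 27.5 and 26.7 CPM and was not called (-0.30 ± 0.23, edgeR adjusted p = 0.277), but was called lower without TMM factors (-0.77, edgeR adjusted p = 0.00375). IRF3, the factor that the sensors activate first, was called higher (0.43 ± 0.16, edgeR adjusted p = 0.0229). That call was lost without TMM factors, where the value was -0.03, and without the 5 animals with lettered virgin titles.

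Between sensors and factors, MAVS and TICAM1 moved in opposite directions. MAVS, the mitochondrial adaptor on which MDA5 and RIG-I converge, ran from 35.0 through 58.6 to 93.9 CPM in virgin and from 24.4 through 34.0 to 41.0 CPM in lactating libraries. Its log2 fold change was -0.97 ± 0.13 (edgeR adjusted p = 4.54e-07), and it was lower in 15 of 15 animals, which held for 5.52% of all rows. TICAM1, the adaptor of the endosomal RNA receptor TLR3, rose by 1.61 ± 0.25 (edgeR adjusted p = 3.21e-06), and is named here after its value was seen. Of the genes that restrain the pathway, SOCS1, an inhibitor of JAK kinases, ran from 1.09 through 2.58 to 5.47 CPM and from 7.66 through 11.8 to 17.9 CPM. It rose by 2.13 ± 0.18 (edgeR adjusted p = 3.87e-11) without overlap of the groups, over a locus 12.2 times its RefSeq span, so that counts of neighbouring genes may be included.

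**Figure D5:**
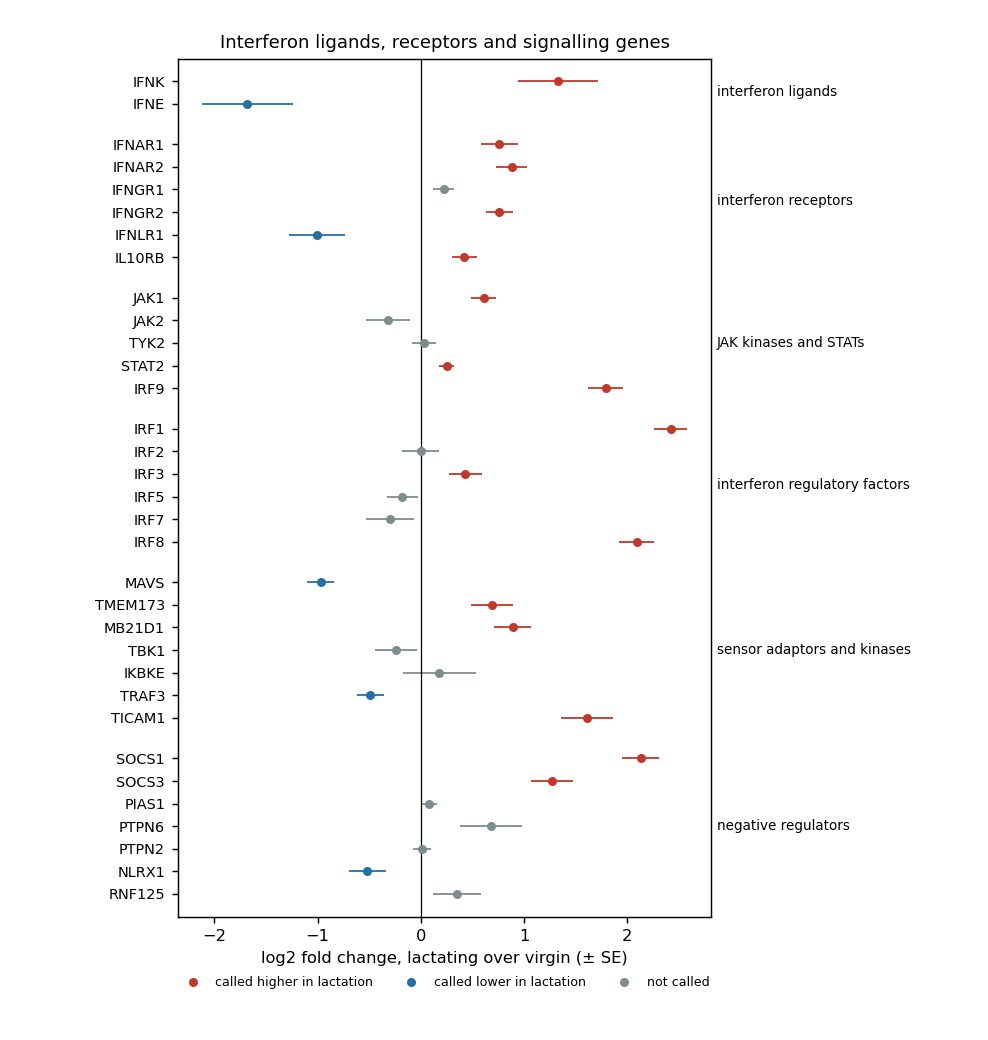
Log2 fold change, lactating over virgin, with its standard error (horizontal axis) for the 33 tested interferon ligands, receptors and signalling genes, grouped by role (vertical axis). IRF1 (2.42), SOCS1 (2.13), IRF8 (2.09) and IRF9 (1.79) lie farthest to the right, MAVS (-0.97), IFNLR1 (-1.01) and IFNE (-1.68) to the left, and STAT2 and TYK2 near 0, where they turn negative without TMM factors.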

How the data were processed

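Poly-A RNA of 31 organoid libraries was sequenced with strand-specific preparation, per the labels' protocols. The authors deposited whole-number read counts per gene with no normalization. A second deposited table gives RPKM, the authors' log2 fold changes (virgin minus lactating) and adjusted p-values. HISAT2 2.0, SAMtools, StringTie 1.3.2, featureCounts 1.5.2, Subread, edgeR and build UMD3.1 are named per the submitters' processing notes; their settings, and whether strand was used in counting, were not stated in the labels or headers. RPKM served only to recover each counted locus length, set against RefSeq gene spans of assembly ARS-UCD2.0. Of 12345 rows with a span, 8.28% had a locus over 2 times it. As builds differ, no coordinates are printed, and no sequences were used here, so the planned promoter search was not run.

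The deposited counts entered edgeR 4.0.16 (R 4.3.3) (filterByExpr with minimum count 10 and minimum total 15, TMM, robust quasi-likelihood fit, group as the only term), testing 13180 of 14084 rows. SE is the log2 fold change divided by the square root of F. Alternatives were no TMM, RLE factors, DESeq2 1.42.0, limma-voom (limma 3.58.1), other filters, an animal block and libraries left out. Counts were simulated for the lactating against virgin comparison (13180 rows), with 200 rows changed in random directions. Of these, 24 of 50 rows changed 1.5-fold, 42 of 50 changed 2-fold and 48 of 50 changed 4-fold were recovered, with 7 of 171 calls false. Far more rows were called in the data, so the simulation does not test the effect of the TMM factors there. The replicate number is the animal, per the series design, so it pairs samples. Residuals of own-animal pairs correlated at 0.0702 to 0.392 (mean 0.221), against -0.016 for other pairs. No replicates agreed within sampling noise (lowest chi-square per degree of freedom 35.3 virgin, 46.0 lactating).

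The members and lists were chosen with earlier results of these data known. Every member is counted; those given in most detail are, per role, the 2 with the smallest p, the one with the highest mean CPM, a fixed set (among them IFIH1, DDX58, RSAD2, ISG15, USP18), and each fallen member. Signalling genes named are 12 fixed ones and the 3 others with the smallest p. One signalling gene is not reported here. Other genes named were chosen after their values were seen.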

Additional observations from a re-analysis of the deposited data

How the results depend on the processing

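The 25 rises were kept with RLE factors, DESeq2, limma-voom, no filter, the animal as a block, each locus counted once, without L478 and L538, and without V479 and V581. The replicate block gave 27 rises and 2 falls (median 0.90); it added IFI6 and IFI44 and lost ISG20. The stricter filter (1 CPM in 15 libraries) tested 34 loci, leaving out OASL, IFIT2, IFIT3 and ZBP1, and kept the 21 rises among them. Without TMM factors 16 loci rose and 5 fell (median 0.32), and of the signalling genes 8 rose and 13 fell, against 10.5% and 58.8% of all rows. There DHX58 stood at -0.07, IFIT5 at -0.11, USP18 at -0.17, IFI6 at -0.07, IFNGR1 at -0.27, TYK2 at -0.44, STAT2 at -0.24 and IRF3 at -0.03; the cause was not tested. Without the 5 animals with lettered virgin titles, which leaves fewer samples, 21 loci rose and 0 fell, against 18.3% and 23.2% of all rows. In that setting 3 signalling genes fell, and of the 16 that rose in the main fit only IL10RB and IRF3 lost their calls. Leaving out each library in turn gave 25 to 26 rises, 2 to 4 falls and a median of 0.76 to 0.89. Of the signalling genes 16 to 17 rose and 5 to 6 fell in these fits. The share of all rows called was not counted for each library left out. TYK2 ranged from -0.00 (without V531) to 0.13. Low counts limit OASL, IFIT2, IFIT3, ZBP1, IFNG, IFNK and IFNLR1.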
